A study of Mus musculus with 6 samples.

Results

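Accessible chromatin was described at 46 genes of Wnt signalling: 19 Wnt ligands, 12 Frizzled and LRP receptors, 10 secreted inhibitors, 4 R-spondins and the target gene Axin2. A peak was assigned to a gene if its summit lay in the gene's RefSeq span or within 20 kb of either end. This took 241 of 106132 peaks called in wildtype (WT) cells and 233 of 98072 peaks called in knockout (KO) cells. The members were 46 of 21883 protein-coding genes with a position on the mouse build GRCm38.

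The cells were cultured mouse dermal fibroblasts, the collagen-producing cells of the skin, grown in DMEM with fetal calf serum. The WT group had 3 ATAC-seq libraries and the Lap2alpha KO group had 3. Lap2alpha is a splice form of the Tmpo product that lies in the nuclear interior and binds A-type lamins. In ATAC-seq the transposase Tn5 cuts accessible DNA, and sites with many cuts are called as peaks. The 3 libraries of a genotype were merged into 1 list of peaks, so no replicate spread and no p-value between the genotypes could be had. The labels number the libraries as replicates but do not tie them to different mice or dishes, and they give neither the strain nor the type of knockout allele.

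Wnt proteins are secreted, lipid-modified ligands. In the canonical branch a Wnt joins a Frizzled receptor to the co-receptor Lrp5 or Lrp6, which stabilises beta-catenin and turns on targets such as Axin2. Secreted Frizzled-related proteins and Wif1 bind the ligands and Dickkopf proteins such as Dkk1 bind the co-receptors, whereas R-spondins raise receptor levels at the cell surface. In skin these signals act between epidermis and dermis in hair follicle formation and in the growth phase of the hair cycle.

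Read totals are not part of the peak lists, and the sequencing depth behind them is unknown. A gene-end peak, meaning a peak reaching into the 1 kb on either side of a gene's first or last base, was present in both lists at 10 of 12 fibroblast markers, the exceptions being Lum and Fap. For the other cell types such a peak was present in both lists at 2 of 7 keratinocyte, 1 of 6 leukocyte, 2 of 5 endothelial, 2 of 6 Schwann cell and melanocyte, 0 of 4 muscle and 1 of 4 adipocyte markers. Tmpo kept a gene-end peak in both lists, which does not check the knockout, because only 1 splice form of this gene is named as lost. In a bulk list, a region open in fewer cells and a region less open in each cell cannot be told apart.

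The start regions of 5 genes frame the results. Within 1 kb of the annotated start, Fzd9 and Frzb had a peak in the WT list only and Wnt4 in the KO list only. Fzd7 had a long peak there in both lists, and Fzd10 had no peak in either. The peaks of Fzd9 and Frzb crossed the start, but that of Frzb was weak, at percentile 8.6 of its list. The Wnt4 peaks, at 39.0 or lower, ended before the start. With 2 kb around either gene end, Frzb and Wnt4 had a peak in both lists. Each sequence is the 250 bases before the start from the RefSeq promoter table (GRCm38.p6), written 5′ to 3′ on the gene's strand, with every CG pair in capitals. The positions are chr5:135251048-135251297 on the minus strand for Fzd9, chr2:80447397-80447646 on the minus strand for Frzb, chr4:137277385-137277634 on the plus strand for Wnt4, chr1:59481897-59482146 on the plus strand for Fzd7 and chr5:128600856-128601105 on the plus strand for Fzd10.
Fzd9: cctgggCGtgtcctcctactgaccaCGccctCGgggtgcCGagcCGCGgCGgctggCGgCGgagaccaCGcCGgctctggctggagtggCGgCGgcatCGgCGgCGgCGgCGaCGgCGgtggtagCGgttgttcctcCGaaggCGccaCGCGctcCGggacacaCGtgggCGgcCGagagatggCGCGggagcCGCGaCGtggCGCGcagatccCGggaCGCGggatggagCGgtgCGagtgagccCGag
Frzb: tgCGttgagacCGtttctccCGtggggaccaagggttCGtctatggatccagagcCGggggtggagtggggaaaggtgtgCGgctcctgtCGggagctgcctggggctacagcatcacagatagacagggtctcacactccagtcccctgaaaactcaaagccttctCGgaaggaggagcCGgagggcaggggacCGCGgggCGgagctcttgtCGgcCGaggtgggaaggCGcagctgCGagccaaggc
Wnt4: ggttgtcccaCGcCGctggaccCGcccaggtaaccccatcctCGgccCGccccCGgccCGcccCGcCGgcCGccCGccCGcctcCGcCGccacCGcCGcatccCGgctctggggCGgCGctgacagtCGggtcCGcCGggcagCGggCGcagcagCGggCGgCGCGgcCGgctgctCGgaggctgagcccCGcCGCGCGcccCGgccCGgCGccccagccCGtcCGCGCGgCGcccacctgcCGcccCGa
Fzd7: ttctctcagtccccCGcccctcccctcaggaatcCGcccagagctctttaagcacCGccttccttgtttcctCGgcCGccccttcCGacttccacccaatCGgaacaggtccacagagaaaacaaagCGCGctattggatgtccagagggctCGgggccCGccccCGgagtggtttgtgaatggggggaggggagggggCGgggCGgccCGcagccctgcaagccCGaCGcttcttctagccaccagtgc
Fzd10: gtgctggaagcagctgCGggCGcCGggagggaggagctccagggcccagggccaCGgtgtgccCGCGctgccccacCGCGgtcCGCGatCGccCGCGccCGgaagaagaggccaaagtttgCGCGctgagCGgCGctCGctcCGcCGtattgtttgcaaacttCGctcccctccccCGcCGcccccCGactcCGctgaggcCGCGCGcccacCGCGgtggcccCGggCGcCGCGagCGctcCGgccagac
The 5 runs hold 42 CG pairs for Fzd9, 16 for Frzb, 44 for Wnt4, 17 for Fzd7 and 37 for Fzd10. The promoter with no peak at Fzd10 was therefore richer in CG pairs than the promoter under a long peak at Fzd7.

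Most peaks at the Wnt genes were called in both genotypes. A peak with at least 1 bp in common with the other genotype's peaks was counted as shared, and the rest as WT-only or KO-only. Of the 241 WT peaks, 43 were WT-only, a share of 17.8% (95% exact binomial interval 13.2 to 23.3, which covers counting error only). Over the whole WT list the share was 20.4%, and over peaks in the same windows of all protein-coding genes it was 18.5%. Of the 233 KO peaks, 36 were KO-only, a share of 15.5% (11.1 to 20.7), against 13.4% of the whole KO list and 12.2% in the windows of all protein-coding genes. Each background share lay inside the members' interval, so at this number of peaks no departure from the rest of the genome was detectable. The KO peaks numbered 96.7% of the WT peaks at these genes and 92.4% over the whole lists. The bases covered were 160019 in WT and 159784 in KO, a ratio of 99.9% against 94.0% over the whole lists. This ratio rose above 100% under several other counting rules, so its side of 100% carries no direction.

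The genotype-only peaks were mostly weak, at the Wnt genes as over the whole lists. Signal, the authors' area under the peak, is given here as the percentile of a peak within its own list. Percentiles from lists of different lengths do not measure a change. WT-only peaks had a median percentile of 19.2 and a median width of 277 bp, and shared WT peaks had 54.8 and 563.5 bp. KO-only peaks had a median percentile of 12.3 and a median width of 227 bp, and shared KO peaks had 54.9 and 592 bp. Over the whole lists the median percentile was 17.8 for WT-only and 16.5 for KO-only peaks. In the upper 50% of their list stood 6 of 43 WT-only peaks (14.0%, against 8.53% of all WT-only peaks) and 1 of 36 KO-only peaks (2.78%, against 8.97%). No peak of the other list came within 1 kb for 38 of the WT-only peaks (88.4%, against 76.5% of all) and 32 of the KO-only peaks (88.9%, against 79.6%).

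Shared peaks overlap by definition, which limits how far apart their summits can lie, so the distances below are descriptions only. The summits of shared peaks lay a median of 14.5 bp from the summit of the partner counted from the WT list and 14 bp counted from the KO list. They lay within 100 bp for 85.4% of shared WT and 85.8% of shared KO peaks. The nearest summit was taken where a peak had several partners, and no whole-list value is given here. WT-only peaks were placed at a member's end in 11.6%, in the gene body in 37.2% and in the flank in 51.2%. Shared WT peaks had nearly the same split, at 12.6%, 38.9% and 48.5%. KO-only peaks were split into 11.1%, 38.9% and 50% over the same 3 places.

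**Figure D1:**
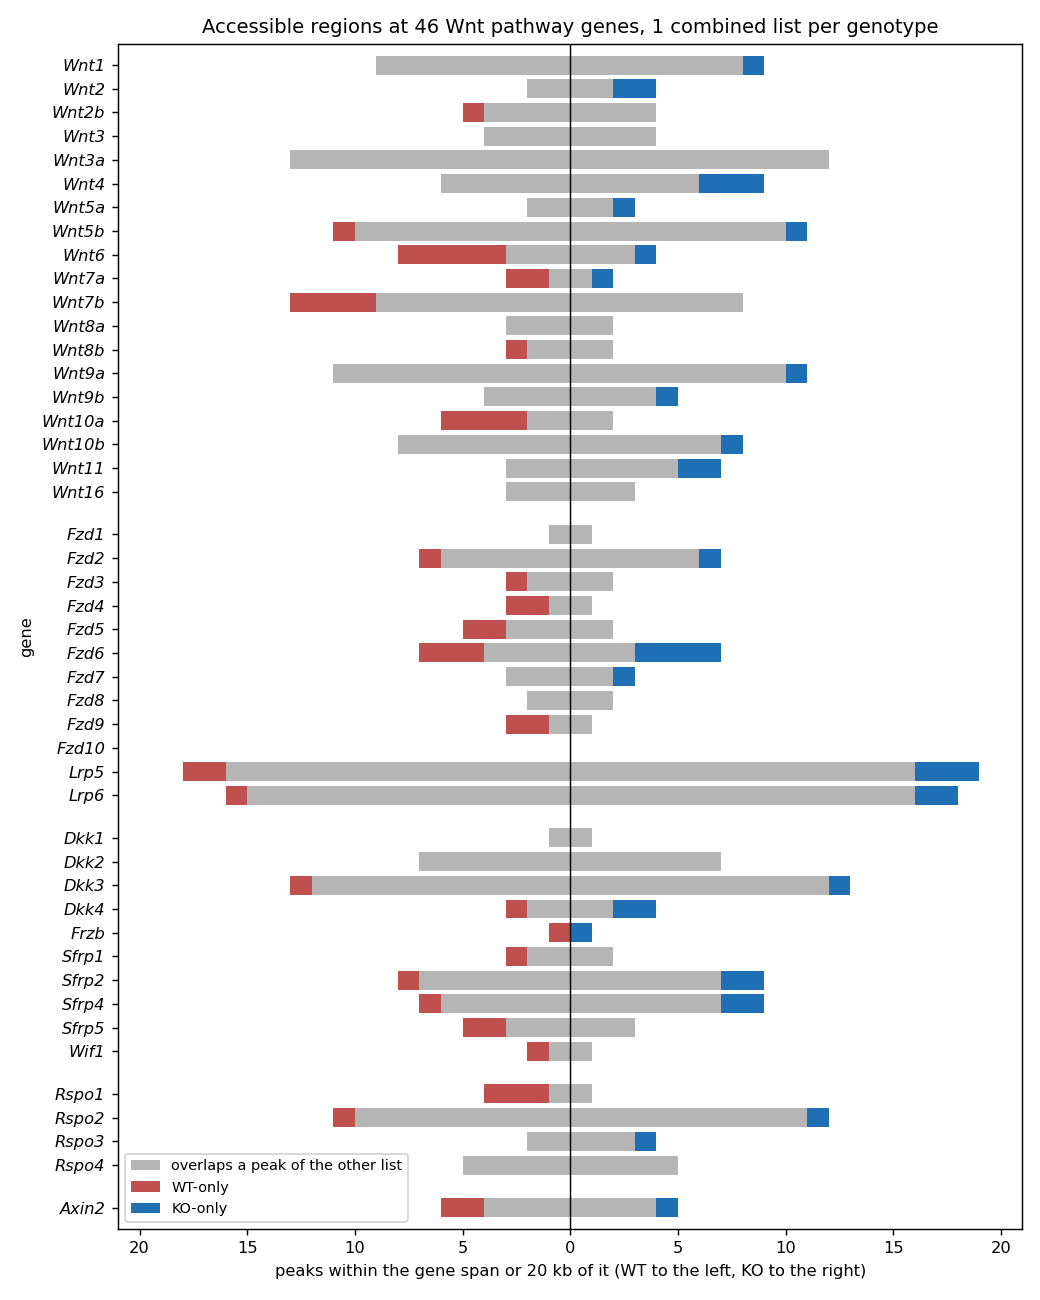
Number of peaks at each of the 46 genes, with WT to the left and KO to the right of 0, grouped from top to bottom as ligands, receptors, inhibitors, R-spondins and Axin2; grey marks peaks that overlap a peak of the other list, red WT-only and blue KO-only peaks. Grey makes up most of the bars, the longest belong to Lrp5 with 18 WT and 19 KO peaks, and Fzd10 has none.

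By gene, 15 of 46 members had more WT-only than KO-only peaks, or 32.6%, against 37.4% of all protein-coding genes. More KO-only peaks were found at 16 members, or 34.8%, against 19.2% of all genes. The remaining 15 had equal numbers, and 10 of these had no genotype-only peak at all. This balance depended on the length of the lists through its WT count, while the KO count stayed at 16. When only the top 73554 peaks by signal were kept in each, which gives lists of equal length, 25 WT-only and 32 KO-only peaks were left. Then 8 of 46 members had more WT-only and 16 of 46 (34.8%) more KO-only peaks. Among all genes, 5161 of 21883 (23.6%) had more WT-only and 4900 of 21883 (22.4%) more KO-only peaks. The 16 were not all the same genes, as Lrp5, Wnt11, Rspo3, Sfrp2 and Dkk4 had dropped out. In the full lists the excess was at most 4 peaks toward WT and at most 3 toward KO. Toward KO it was a single peak at all but Wnt4, Wnt11 and Wnt2. Toward WT it was a single peak at all but Wnt7b, Wnt6, Wnt10a, Rspo1, Sfrp5, Fzd4, Fzd5 and Fzd9. Members with overlapping windows can count the same peak, as Wnt1 and Wnt10b did for 1 KO-only peak and Wnt6 and Wnt10a for 4 WT-only peaks. Counted by role, the ligands were split into 6 with more WT-only and 8 with more KO-only peaks, the receptors into 4 and 4, the inhibitors into 3 and 3, and the R-spondins into 1 and 1.

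Among the ligands, 14 of 95 WT peaks were WT-only (14.7%) and 14 of 93 KO peaks were KO-only (15.1%). The whole lists had shares of 20.4% and 13.4%. The excess toward WT was greatest at Wnt7b, Wnt6 and Wnt10a, and the excess toward KO at Wnt4, Wnt11 and Wnt2. Wnt7b and Wnt10a are mainly known as epidermal ligands of the hair follicle, and Wnt6 lies next to Wnt10a in the genome.

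Wnt6 had 8 WT peaks, of which 5 were WT-only, and 4 KO peaks, of which 1 was KO-only. Wnt10a had 6 WT peaks, of which 4 were WT-only, and 2 KO peaks, both shared. The windows of these neighbours overlap, so the 4 WT-only peaks of Wnt10a are also counted for Wnt6. The strongest of them lay in the Wnt6 gene body on chromosome 1 from 74773126 to 74773616, at percentile 70.4. Next came a peak in the Wnt10a body from 74793178 to 74793590 at percentile 55.4, and the others stood at 14.2 and 1.6. The 10 Mb block around the pair held 85.9% as many KO as WT peaks, below the 92.4% of the whole lists, and its part in the result was not tested.

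Wnt7b had 13 WT and 8 KO peaks. Its 4 WT-only peaks stood at percentiles 30.3, 11.4, 6.9 and 3.4, and none of its KO peaks was KO-only. The strong peaks of the gene were shared: the strongest lay 17480 bp outside the gene, on chromosome 15 from 85598566 to 85600687 in WT (percentile 99.2) and from 85598561 to 85600888 in KO (99.6). The WT excess at Wnt7b thus rested on weak peaks, and in lists cut to equal length it turned into an excess of 1 KO-only peak.

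Wnt4, a ligand made in epithelium or mesenchyme of many organs, had 6 WT peaks, all shared, and 9 KO peaks, of which 3 were KO-only. A pair of these lay just before the annotated start on chromosome 4, from 137276424 to 137276947 at percentile 20.5 and from 137277097 to 137277451 at 39.0. The third lay in the gene body from 137286350 to 137286876 at 37.8, beside the strongest peak of the gene. The excess of 3 KO-only peaks at Wnt4 became 1 in lists of equal length and 0 in the upper 50%. The strongest peak was shared and spanned 137287141 to 137288306 in WT (percentile 79.3) and 137287123 to 137288296 in KO (88.4). The block around Wnt4 held 87.5% as many KO as WT peaks, below the 92.4% of the whole lists, and its part in the result was not tested.

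Wnt2 had 2 WT peaks, both shared, and 4 KO peaks, of which 2 were KO-only at percentiles 31.6 and 19.2. Its shared peaks were longer in the KO list. The flank peak measured 406 bp in WT (percentile 43.5) and 1417 bp in KO (89.3), and the peak at the gene end measured 378 bp (17.3) and 1067 bp (66.8). Wnt2 covered 784 bp in WT and 2974 bp in KO. Of the ligands, Wnt2 had the widest gap between the strongest peaks of the lists in the plot of strongest peaks.

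Wnt11, a ligand of the beta-catenin-independent branch, had 3 WT and 7 KO peaks. Of these 4 additional KO peaks, 2 came from how 1 long region was cut and 2 were KO-only. A WT peak of 3470 bp on chromosome 7 from 98814631 to 98818100 (percentile 99.0) faced 3 KO peaks at percentiles 94.8, 82.0 and 51.6. The KO-only peaks at Wnt11 stood at 4.8 and 1.7, and both were lost in lists of equal length. The covered length was 5030 bp in WT and 4672 bp in KO.

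The reverse cut was seen between Wnt10b and Wnt1, which lie side by side. There a KO peak of 3600 bp on chromosome 15 from 98777850 to 98781449 (percentile 99.6) faced WT peaks of 1310 bp (77.2) and 1967 bp (97.8). Wnt9a likewise had 1 KO peak of 1075 bp facing 2 WT peaks at its end. Peak numbers at these genes therefore depend on where the caller broke a region.

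Wnt5a, a ligand that signals through Ror receptors and is well expressed in dermal fibroblasts, had 2 WT and 3 KO peaks. Its end peak stood at percentile 92.0 in WT and 91.2 in KO. Wnt16 had 3 peaks in each list, all shared, the strongest at 94.2 and 93.4 and 7647 bp outside the gene. Wnt3a had 13 WT and 12 KO peaks without any genotype-only peak, and the strongest sat at the end of its neighbour Arf1. Wnt3a had no peak at its own ends in either list.

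**Figure D2:**
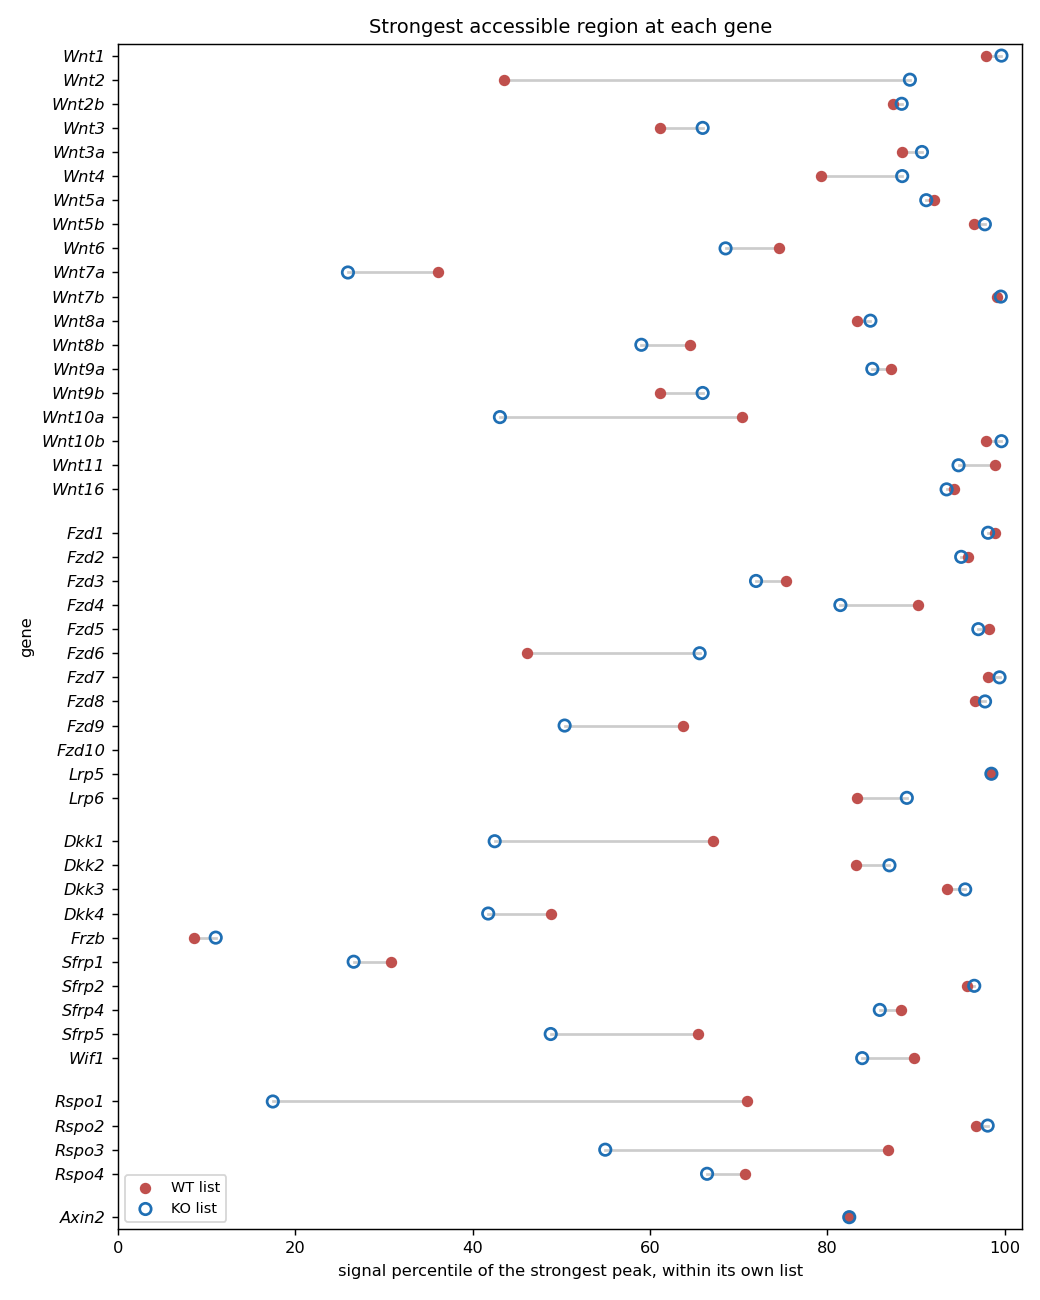
Signal percentile, within its own list, of the strongest peak at each gene; filled red points are the WT list, open blue points the KO list, and a line joins the values of a gene. Most pairs lie close together, while Wnt2 (43.5 and 89.3) and Rspo1 (70.9 and 17.5) are far apart, and Fzd10 has no point.

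Of the roles, the receptors had the highest median signal percentile of gene-end peaks. Frizzled proteins are the seven-pass receptors of Wnts, and Lrp5 and Lrp6 are their co-receptors. A gene-end peak was present in both lists at 9 of 12 receptors (75%, against 56.1% of all protein-coding genes). The strongest such peak per gene had a median percentile of 95.9 in WT (75.4 to 98.9) and 95.1 in KO (72.0 to 99.4). No such median over all genes is given here. The medians were 81.1 and 85.1 for 6 ligands, 86.5 and 86.5 for 4 inhibitors, and 60.1 and 67.3 for 2 R-spondins. The top value in KO, 99.6, belonged to the ligand Wnt10b. These medians mix gene starts with far ends: the end peaks of Rspo4 and Wnt2b lay away from the annotated start, which had no peak. The ranking of the roles is therefore not one of start peaks. Of 68 WT peaks at receptors 14 were WT-only (20.6%), and of 63 KO peaks 11 were KO-only (17.5%). The whole lists had shares of 20.4% and 13.4%.

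Several Frizzled genes had 1 long region over the gene end in both genotypes. At Fzd7 it measured 3511 bp in WT (percentile 98.1) and 3946 bp in KO (99.4), and at Fzd5 it measured 3232 bp (98.3) and 3010 bp (97.0). The end peak of Fzd1 stood at 98.9 and 98.1, and that of Fzd8 at 96.7 and 97.8. At Fzd2 a shared end peak stood at 95.9 in WT and 92.9 in KO, and the shared peak beside it at 88.6 and 95.1. The strongest end peak of Fzd2 was thus a different one in each list. The strongest end peak stood lower at Fzd4, with 90.2 and 81.5 in a peak that also covers an end of Tmem135. At Fzd3 it stood at 75.4 and 72.0. Fzd4 and Fzd5 each also had 2 WT-only flank peaks and no KO-only peak, the former at 19.2 and 6.7, the latter at 25.8 and 14.3. All 7 of these receptors thus kept their main peak in the KO list.

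The other 3 receptors were Fzd9, with a gene-end peak in WT only, Fzd6, with one in KO only, and Fzd10, with none. Fzd9 had 3 WT peaks and 1 KO peak, and the peak over its start was WT-only. This peak of 590 bp on chromosome 5 from 135250991 to 135251580 stood at percentile 63.7 and covered all 300 bases of the annotated promoter. A second WT-only peak lay 1383 bp from the gene at percentile 28.7. The remaining peak was shared, at 50.1 in WT and 50.4 in KO, and lay nearest to Baz1b. Of the members with a gene-end peak in 1 list only, Fzd9 alone kept that call under all other rules tried for gene ends. These rules are not independent. The summit limit of 5 kept 106128 of 106132 WT peaks and could hardly change a call. The annotated start of Fzd9 is its gene end, base 135251047, so the start rule repeats the main one. The block around Fzd9 held 92.9% as many KO as WT peaks, close to the 92.4% of the whole lists.

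Fzd6, a receptor of planar cell polarity that orients hair follicles, had 7 peaks in each list, of which 3 were WT-only and 4 KO-only. The KO-only peak on chromosome 15 from 39040048 to 39040681 stood at percentile 56.8 and was the strongest KO-only peak at any of the 46 genes. It lay 2160 bp outside the gene. A shared peak nearby measured 241 bp in WT (percentile 5.0) and 616 bp in KO (65.6). Covered length at Fzd6 was 1518 bp in WT and 3063 bp in KO.

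Lrp5 and Lrp6 had the largest numbers of peaks, in windows around gene spans of 101761 and 120438 bp. Peak numbers were not scaled to window length. Lrp5 had 18 WT peaks with 2 WT-only and 19 KO peaks with 3 KO-only, and Lrp6 had 16 with 1 and 18 with 2. The genotype-only peaks of both stood at percentile 35.1 or lower. The strongest peak in the Lrp5 window, at 98.5 in both lists, sat at an end of Ppp6r3. In lists cut to equal length the excess at Lrp5 turned to 2 peaks toward WT.

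The secreted inhibitors had 50 peaks in each list, of which 9 were WT-only (18%) and 8 were KO-only (16%). The whole lists had shares of 20.4% and 13.4%. Dkk3, a Dickkopf family member, had 13 peaks in each list and 1 genotype-only peak in each, and its strongest peak lay in the gene body at percentile 93.5 in WT and 95.5 in KO. Dkk2 had 7 peaks in each list, all shared, with an end peak at 83.2 and 87.0. Dkk1, which blocks Lrp5 and Lrp6, had 1 shared peak at 67.1 in WT and 42.5 in KO. The block around Dkk1 held 72.5% as many KO as WT peaks.

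Sfrp2, a Frizzled-related protein abundant in dermal fibroblasts, had an end peak at 95.7 in WT and 96.6 in KO, and Wif1 had one at 89.8 and 83.9. Sfrp2 also had a KO-only peak on chromosome 3 from 83762457 to 83762675 with a percentile of 44.2, second among KO-only peaks to that of Fzd6. The third, at 42.5, lay at Wnt5b on chromosome 6 from 119460099 to 119460572. Sfrp5 had 5 WT peaks, of which 2 were WT-only at 47.3 and 54.0, and 3 KO peaks, all shared. The block around Sfrp5 held 75.6% as many KO as WT peaks, and its part in the result was not tested.

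Frzb, also a Frizzled-related protein, had 1 weak peak in each list and shared neither. The WT peak crossed the annotated start at percentile 8.6, and the KO peak lay in the gene body at 11.0. Sfrp1 had 3 WT and 2 KO peaks, of which the WT-only one, at 22.7, reached the gene end. Dkk4 had 2 KO-only peaks, one of 589 bp near its end at 39.3 and one in the flank at 16.6. It had 1 WT-only peak, at 2.1, that lay nearest to Polb.

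Among the R-spondins, Rspo1 and Rspo3 had different peaks in the lists. Rspo1 had 4 WT peaks, of which 3 were WT-only, and 1 KO peak. A WT-only peak on chromosome 4 from 124972868 to 124973984, 1117 bp long and 12853 bp from the gene, stood at percentile 70.9 and was the strongest genotype-only peak at any of the 46 genes. The next, from 124983920 to 124984503, stood at 59.9, and the third, at 17.7, lay nearest to Gnl2. The shared peak in the gene body measured 518 bp in WT (53.6) and 170 bp in KO (17.5). In all, Rspo1 covered 2398 bp in WT and 170 bp in KO. The block around Rspo1 held 83.8% as many KO as WT peaks, and its part in the result was not tested.

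Rspo3 had 2 WT peaks, both shared, and 4 KO peaks, of which 1 was KO-only at percentile 3.3. A WT peak of 1987 bp on chromosome 10 from 29532869 to 29534855 (percentile 86.9) faced KO peaks of 406 bp (54.9) and 754 bp (36.0). Rspo3 thus had more peaks but fewer covered bases in KO, 1842 bp against 2419 bp in WT. Rspo2 had 11 WT and 12 KO peaks with an end peak at 96.7 and 98.1. It had 1 WT-only peak at 31.9 and 1 KO-only peak at 17.3. The 5 peaks of Rspo4 in each list were all shared.

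Axin2, which encodes a scaffold of the beta-catenin destruction complex and is itself a target of the pathway, had 6 WT and 5 KO peaks. Its strongest peak covered the annotated start and stood at percentile 82.4 in WT and 82.5 in KO. It spanned 108920045 to 108920910 on chromosome 11 in WT and 108919862 to 108920910 in KO. The next peak stood at 68.6 and 70.4. Of the weaker peaks 2 were WT-only and 1 was KO-only.

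**Figure D3:**
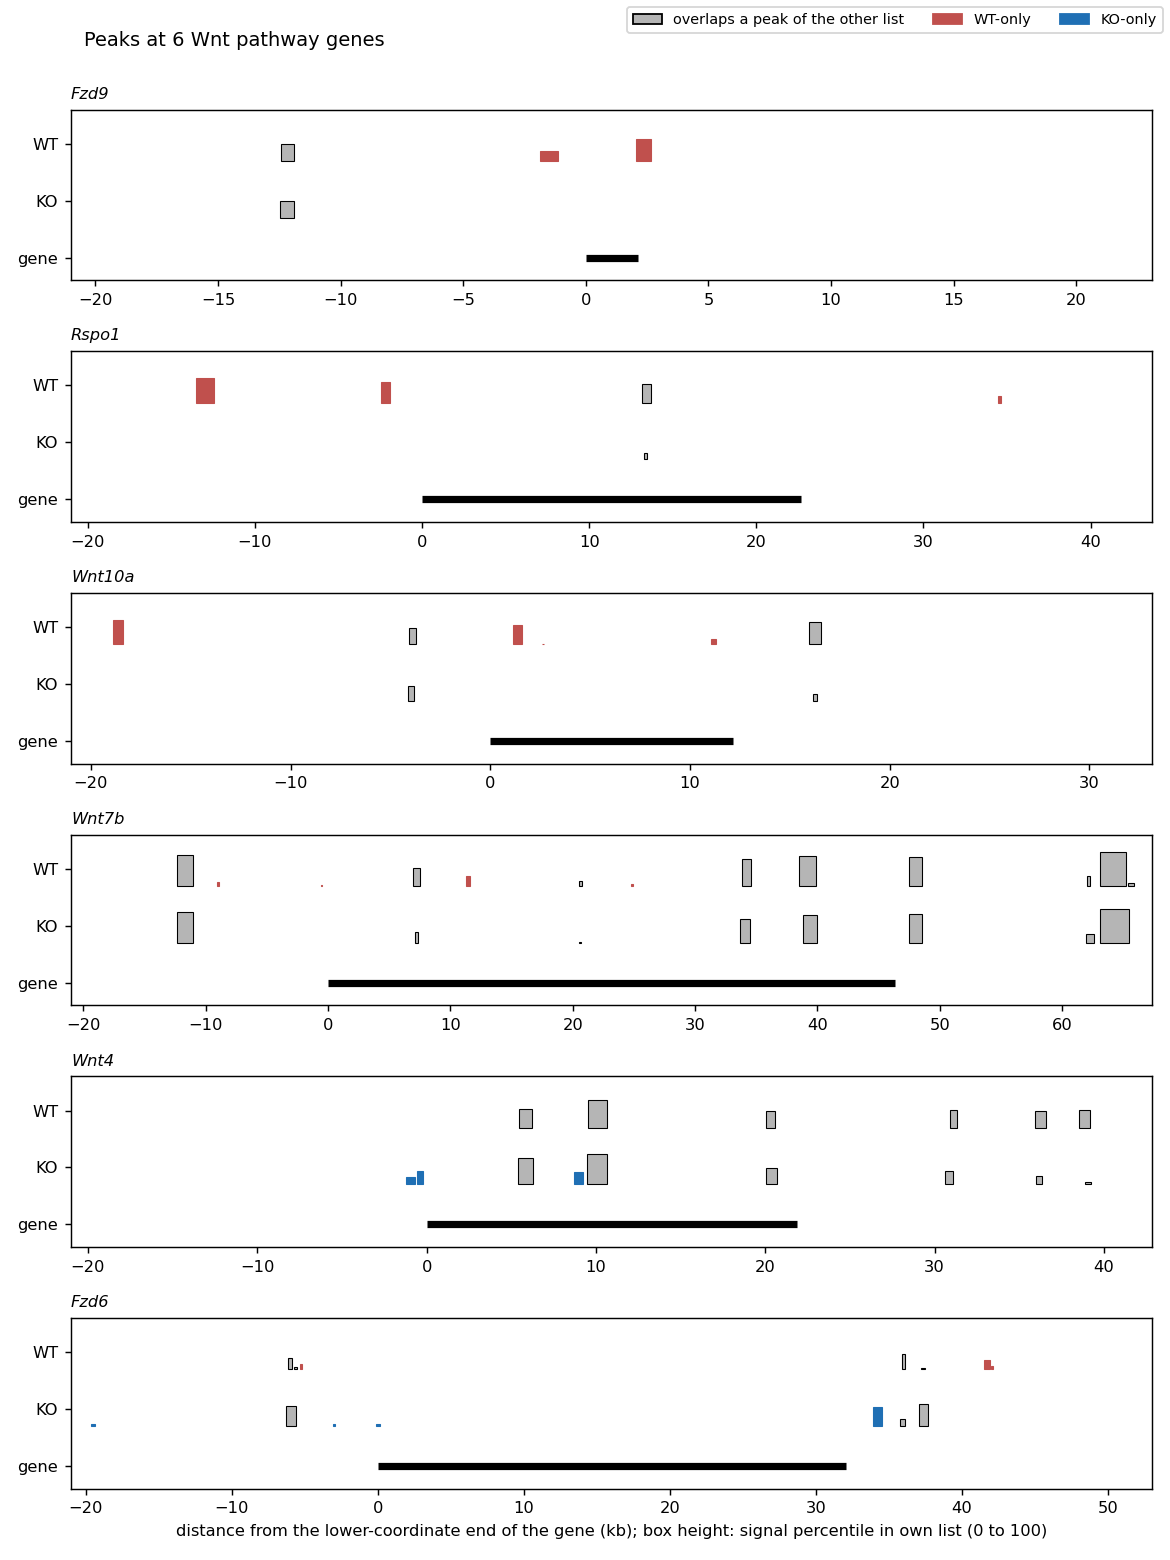
Peaks at Fzd9, Rspo1, Wnt10a, Wnt7b, Wnt4 and Fzd6 by distance in kb from the lower-coordinate end of the gene; the black bar is the gene, box height is the signal percentile within the peak's own list from 0 to 100, grey boxes overlap a peak of the other list, red boxes are WT-only and blue boxes KO-only. The red box at the right end of Fzd9 has no KO counterpart, and the red boxes of Wnt7b are all low, at percentile 30.3 or less.

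A gene-end peak was present in both lists at 21 of 46 members, or 45.7%, against 56.1% of all protein-coding genes. It was present in WT only at 5 members (10.9%, against 2.47% of all genes) and in KO only at 4 members (8.70%, against 1.31%). The 5 were Wnt10a, Wnt7b, Fzd9, Frzb and Sfrp1, at percentiles 14.2, 3.37, 63.7, 8.60 and 22.7. The 4 were Wnt4, Rspo3, Fzd6 and Dkk4, at 39.0, 3.33, 6.47 and 39.3. Both shares stood above the background, in both directions, but 8 of the 9 peaks stood below the list median, and with only the upper 50% of peaks Fzd9 was left of the 5 and none of the 4. Under that rule Wnt2 became KO only, because its WT end peak at 17.3 dropped out. With a window of 2 kb, Wnt7b, Frzb, Wnt4 and Rspo3 had a peak in both lists.

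The annotated start could be located for 30 of the 46 members, with 33 promoters. A peak within 1 kb of the start was present in both lists at 14 promoters (42.4%, against 54.2% of all promoters in the table). Only the WT list had one at 2 promoters (6.06%, against 1.9%), those of Fzd9 and Frzb. Only the KO list had one at 2 promoters (6.06%, against 0.898%), those of Wnt4 and Wnt2. The Wnt2 peak, on chromosome 6 from 18031062 to 18032128, was a shared one. Its WT partner, from 18031648 to 18032025, lay just outside the 1 kb. The WT-only peaks covered 300 of the 300 promoter bases of Fzd9 and 165 of those of Frzb. The KO peak covered 67 promoter bases of Wnt4 and 0 of Wnt2. No peak was found at 15 promoters (45.5%, against 43.0%).

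Member promoters without a peak were rich in CpG. The ratio of observed to expected CpG had a median of 0.82 (0.33 to 1.18) at the 15 member promoters without a peak and 0.23 at all promoters without a peak. At promoters with a peak in both lists the medians were 0.74 for the members and 0.77 for all. The median GC content was 71.3% at member promoters without a peak and 49.3% at all such promoters, and with a peak in both lists it was 66.2% and 61.3%. Of the 15, 12 lay above 0.45, the upper quartile of all promoters without a peak. The Fzd10 promoter printed above is one of them, with a ratio of 0.99 and a GC content of 77.7%.

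**Figure D4:**
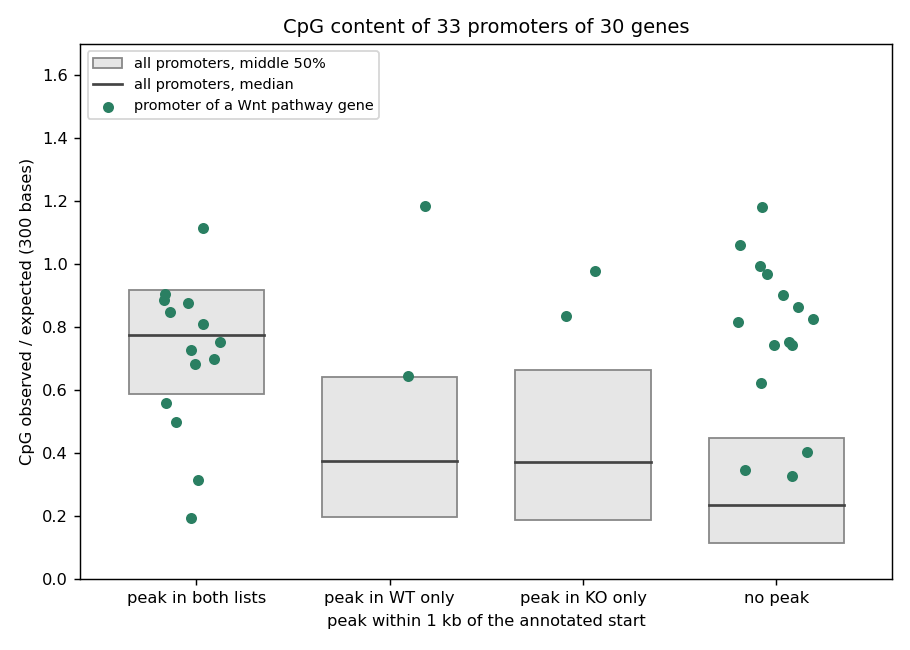
Observed over expected CpG in the 300 bases around the annotated start, by the list in which a peak lay within 1 kb; points are the 33 promoters of 30 Wnt genes, grey boxes the middle 50% and lines the median of all promoters. Among promoters without a peak, 12 of 15 points lie above the grey box, which ends at 0.45.

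Short motifs were searched on both strands of the same 300 bases and are descriptions, not sites. The TCF/LEF-type strings CTTTGAA and CTTTGAT were found in 1 of 33 member promoters (3.03%, Dkk1) and in 2 (6.06%, Wnt11 and Wnt5b), against 4.54% and 3.22% of all promoters. The AP-1-type string TGANTCA was found in 1 (3.03%, Wnt5b) against 6.99%. The E-box CANNTG was found in 22 (66.7%) against 69.0%.

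Not every peak in a window belonged to a Wnt gene by distance. The nearest protein-coding gene was not a member for 41 of the 241 WT peaks (17.0%) and 39 of the 233 KO peaks (16.7%), and 11 and 10 peaks sat at an end of another protein-coding gene. The windows of neighbouring members overlapped for 22 WT and 17 KO peaks. At the edge of the windows, the farthest peak inside was a shared one at Lrp5, 19818 bp from the gene (percentile 47.4 in WT and 52.2 in KO). The nearest outside was a shared one at Fzd5, 20505 bp away (49.5 and 38.7). The local ratio of KO to WT peaks was read in 10 Mb blocks. Its median was 92.9% (75.6 to 119.7) for members with more WT-only peaks and 96.5% (87.5 to 101.8) for members with more KO-only peaks. For members with equal numbers and a peak it was 97.2% (72.5 to 120.2). The block's part in the results was not tested.

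The rest of the pathway was read in a list of 56 other genes, from ligand secretion to nuclear factors. A gene-end peak was present in both lists at 44 (78.6%, against 56.1% of all protein-coding genes) and in WT only at 0 (against 2.47%). It was present in KO only at 3 (5.36%, against 1.31%), which were Pygo1 at percentile 28.7, Prickle1 at 47.7 and Dact1 at 3.3. WT-only peaks made up 74 of 510 (14.5%) and KO-only peaks 103 of 537 (19.2%), against 20.4% and 13.4% of the whole lists. More WT-only peaks were found at 26 genes (46.4%, against 37.4% of all genes) and more KO-only peaks at 21 (37.5%, against 19.2%). The largest excesses of KO-only peaks were at Ror1, Gpc6 and Ror2. Without these 3 genes, chosen after their values were seen, the KO-only share was 57 of 459 (12.4%) and the WT-only share 74 of 478 (15.5%). Ror1, a receptor for Wnt5a, had 5 WT peaks, all shared, and 24 KO peaks, of which 19 were KO-only and 4 of these in the upper 50% of the list. Gpc6, a glypican of the cell surface, had 23 WT peaks and 41 KO peaks, of which 18 were KO-only, in a block with 180.3% as many KO as WT peaks. Ror2, the second receptor of this kind, had 4 WT and 13 KO peaks, of which 9 were KO-only. The blocks of Ror1 and Ror2 held 109.0% and 96.5% as many KO as WT peaks. Gpc6 spans 116924920 to 117979529 on chromosome 14 and Ror1 100095791 to 100444806 on chromosome 4, so their windows are long. Peak counts were not scaled to window length, so these excesses are not comparable with those of short genes. Toward WT, Tcf7l2, a nuclear partner of beta-catenin, had 24 WT peaks with 9 WT-only and 18 KO peaks with none, in a block at 73.3%. Smaller excesses toward WT, of 3 peaks each, were found at Bcl9l and Gsk3b, both with 4 WT-only and 1 KO-only peaks, and at Ptk7, with 3 and 0. In lists of equal length the excess of Ptk7 was 0, and that of Gsk3b was not read.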

How the data were processed

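ATAC-seq was run on 3 WT and 3 Lap2alpha KO libraries. Per the submitters' processing notes, the tools were deepTools 3.5.1, Bowtie2 2.5.1 and Genrich, with GRCm38. The Genrich settings, any Tn5 shift and the way of merging libraries are not given in the sources used here. For each genotype the authors deposited 1 peak list with a score, a signal (area), the −log10 of the summit p and q, and the summit. The score and q were not used. Signal carries no scaling between lists and was used only as a percentile within its own list. Weak peaks near the calling threshold can fall into 1 list by depth alone, and depth is unknown.

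Peaks were placed by summit, and lists were compared by overlap of at least 1 bp. Gene spans and promoters came from RefSeq tables of GRCm38.p6. The gene table has no strand, so the gene start of the plan was replaced by either gene end, and annotated starts were added for 30 of the 46 members. Sequence under the peaks was not used here. The members and gene lists were chosen with earlier results of these data known. Genes described in full were members with a gene-end peak in 1 list only, the 5 per direction whose genotype-only peaks differed most in number, the 5 with the most WT peaks and the 3 strongest genotype-only peaks per list. Ties went to the gene with more peaks, which left out Fzd9, Fzd5 and Fzd4, tied with Sfrp5 toward WT, and 11 members tied with Lrp5 and Lrp6 toward KO. From the other pathway genes the rule took those with a gene-end peak in 1 list only and the 3 per direction with the largest excess. Other members were named after their values were seen. Alternatives changed the overlap, window, signal and summit limits, list length, assignment and start definition. Intervals are exact binomial (Clopper-Pearson) and cover counting error only. Python 3.11.15, numpy 2.4.6, pandas 2.3.3 and scipy 1.17.1 were used, and the code was tested on simulated data.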

Additional observations from a re-analysis of the deposited data

How the results depend on the processing

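No library could be left out and no pairing of libraries tried, since each genotype had 1 combined list. No paired analysis was possible because the lists carry no replicate numbers. The WT-only share of member peaks was 35.7% with a reciprocal overlap of 50% (whole list 33.6%), 4.92% in the upper 50% by signal (3.49%) and 3.23% at a summit −log10 p of at least 10 (3.06%). The KO-only share was 33.5% (28.1%), 0.862% (2.41%) and 0.847% (1.97%) under the same 3 rules. The covered KO length came to 103.0% of WT in windows of 5 kb, 103.2% in lists of equal length, 102.8% for peaks whose nearest gene is a member and 100.2% in the upper 50%. Members with more WT-only peaks numbered 8 in lists of equal length (16 had more KO-only peaks there), 5 in the upper 50% and 4 at a summit of at least 10. Those with more KO-only peaks numbered 8 in windows of 5 kb and 1 under each of the last 2 rules. Gene-end peaks in WT only were counted at 1 member in lists of equal length and in the upper 50%. Those in KO only were counted at 2 members with a 2 kb window and at 1 in the upper 50%, which was Wnt2 and none of the first 4. With annotated starts, 13 members had a peak in both lists, 2 in WT only and 2 in KO only. The KO peak counted for Wnt2 there was a shared one. Among named genes, the excess reversed at Lrp5 (-2) and Wnt7b (1) in lists of equal length. At Ror1 it fell from 19 to 10 in lists of equal length and 4 in the upper 50%, at Gpc6 from 18 to 16 and 5, and at Ror2 from 9 to 6 and 2. Toward WT the differences of KO-only minus WT-only peaks went from -9 to -5 and -2 at Tcf7l2, from -3 to 0 and 0 at Ptk7, and from -3 to -2 and 0 at Bcl9l. At Wnt4 the excess went from 3 to 1 and 0, and at Wnt11 from 2 to 0 and 0. The causes were not tested. The summit limit of 10 and the annotated starts were chosen after seeing the data. Unknown depth limits every count of genotype-only peaks.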
